A study of Mus musculus with 6 samples.

Results

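The 35 genes described here encode the enzymes that build cholesterol and the proteins that take it up, sense it, move it between membranes, store it and export it. They were named by gene symbol in the array's annotation, and each gene is read from its brightest probe set on average over 6 arrays. Of the 35 genes, 32 had such a probe set, and all 32 were among the 11611 genes tested of 18193 named on the array. Acat2, Soat1 and Nr1h2 have no expression value here and enter only the promoter search below. The study set 3 granulosa cell tumors of Smad1/5/8 mutant mice against 3 samples of wild-type granulosa cells. The wild-type cells came from C57BL/6J;129S5/SvEvBrd females 21 days old that had received pregnant mare serum gonadotropin (PMSG) 44 to 46 hours earlier, and each sample pooled 2 to 3 females. The tumors were untreated. For the tumor mice the sources used here give no strain, age or sex, and they do not say how the Smad genes were mutated. Whole tumor tissue was thus compared with isolated cells and unprimed with primed mice. RNA storage also differed between the groups, and the effects of tissue, priming, storage and genotype cannot be told apart.

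Granulosa cells, the somatic cells around the oocyte, use cholesterol as the starting material of progesterone and estradiol. A cell makes cholesterol from acetyl-CoA through mevalonate, farnesyl diphosphate, squalene and lanosterol, or takes it up from lipoproteins through receptors such as scavenger receptor class B type 1. When membranes are poor in sterol, Scap escorts the sterol regulatory element-binding proteins (SREBPs) out of the endoplasmic reticulum, and the released factor raises transcription of most enzymes of the route, while the Insig proteins hold Scap back when sterol is plentiful.

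Every value below is a linear array signal or, where stated, a difference on the log2 scale of signal + 32, tumor minus wild type, with limma's standard error (SE). Each array had a trimmed mean signal of 500, 22565 to 25013 probe sets per array had a signal of 100 or more, and the 3 arrays per group limit the precision of every value. The tumors are described as independent, but nothing states whether the wild-type pools came from separate preparations, so the p-values set differences against the spread between these samples alone. Genes passed the test, and are said to have risen or fallen, where the p-value adjusted by Benjamini and Hochberg's method over all 11611 genes was under 0.05. Because the arrays measure bulk RNA, fewer cells of a type and less RNA per cell cannot be told apart.

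Transcripts of the cholesterol route were lower in the tumors. Of the 18 synthesis enzymes measured, 13 fell, 0 rose and 5 did not pass, and among the other 14 genes 6 fell, 0 rose and 8 did not pass. In all, 19 of 32 fell, where 12.6% of all tested genes were called lower, and 0 rose, where 14.5% were called higher. At an unadjusted p under 0.05 in limma, 20 of the 32 were lower and 1, Lipe, was higher. All 3 tumors lay below all 3 wild-type samples in 21 of the 32 genes, against 22.6% of all tested genes, and all 3 lay above them in 0, against 23.7%. Lrp8 is in each of these counts of lower genes. Its tumors all read below 100, so it was tested only through its wild-type signals and could only be called lower. The genes were chosen with earlier results of these data known, so these contrasts with all genes are descriptions and not tests. The median log2 difference was -1.07 over the synthesis enzymes and -0.19 over the other genes, beside 0.00 over all genes tested. Leaving out 1 sample at a time gave between 13 and 20 lower genes, the lowest count without wild-type replicate 1.

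**Figure D1:**
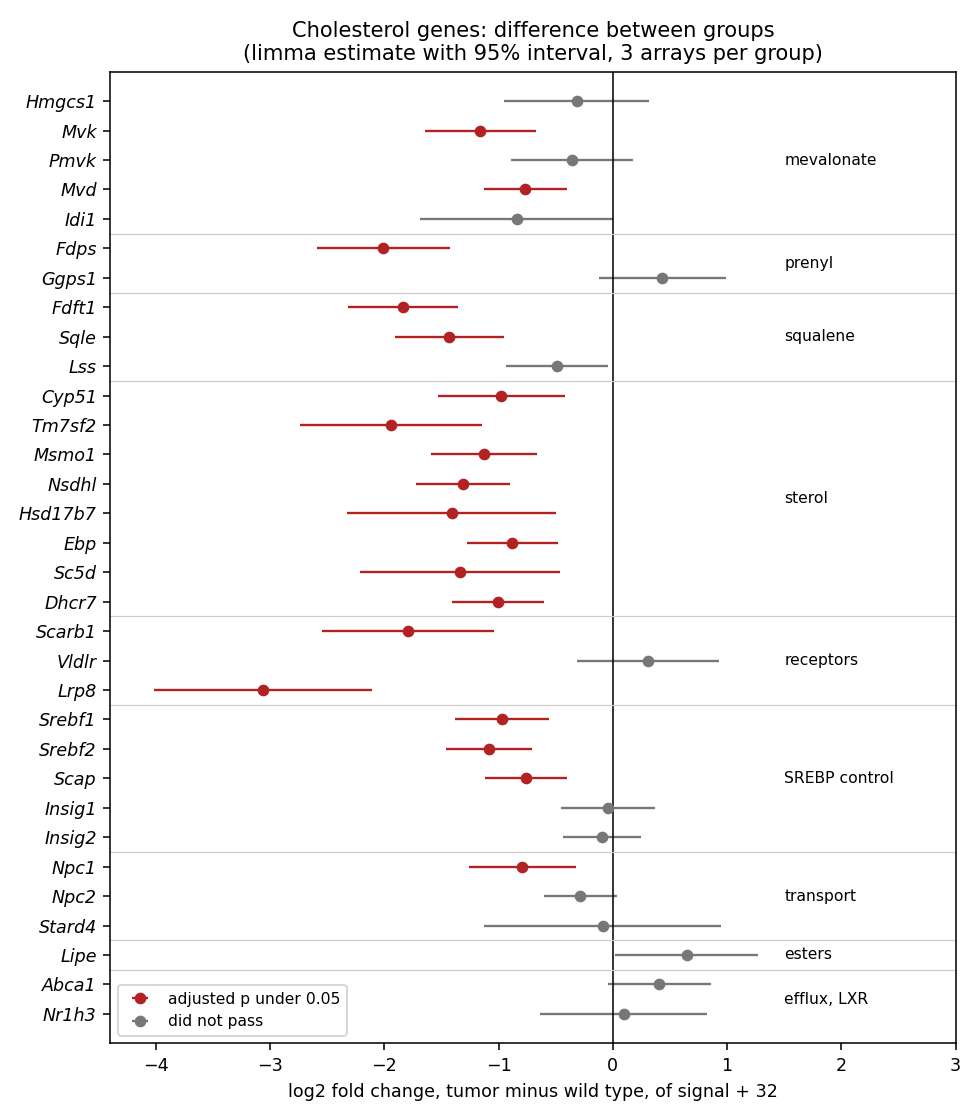
The horizontal axis is the log2 difference of signal + 32, tumor minus wild type, and each of the 32 genes has a row in pathway order; points are limma estimates and bars their 95% intervals (3 arrays per group). The 19 genes in red passed the test and all lie left of 0, while the grey points include Hmgcs1, Insig1 and Insig2.

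At the entry into the pathway, Hmgcs1 did not pass. Its enzyme makes HMG-CoA, from which mevalonate is formed. The Hmgcs1 signal was 6440.1, 5850.1 and 7288 in wild type and 3889, 4600.0 and 7897 in the tumors. Tumor replicate 3 thus read above every wild-type sample, while the other tumors read below all of them. The log2 difference was -0.32 (SE 0.27, limma adjusted p = 0.417), and without tumor replicate 3 it was -0.62 (limma adjusted p = 0.0429). The 5 probe sets of Hmgcs1 all had differences below 0, from -0.60 to -0.32, and none passed when every probe set was tested.

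Mevalonate is then phosphorylated by the kinases that Mvk and Pmvk encode, decarboxylated by the product of Mvd, and the resulting isopentenyl diphosphate is isomerised by that of Idi1. Mvk read 950, 626.5 and 901 in wild type and 292, 403 and 350.2 in the tumors, without overlap (log2 difference -1.16, SE 0.21, limma adjusted p = 0.00794). Mvd fell from a mean of 560.4 ± 82.0 to 314 ± 10.6 (SD, n = 3), a log2 difference of -0.77 (SE 0.16), and both of its probe sets were called lower. Without wild-type replicate 1, the limma adjusted p of Mvd was 0.0609. Pmvk did not pass, at 539.5, 406 and 452 against 385, 254 and 450.1, groups that overlapped. Idi1 had a log2 difference of -0.84 with a 95% interval from -1.69 to 0.0046 (limma adjusted p = 0.126). Its tumor replicate 3, at 1300.2, exceeded wild-type replicate 2, at 995, and without that tumor the difference was -1.15 (limma adjusted p = 0.0496).

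At the prenyl branch point Fdps fell and Ggps1 did not pass, and the difference between them was not tested. Fdps encodes farnesyl diphosphate synthase, whose product leads to sterols. Its signals of 9658, 7031 and 11158 in wild type stood against 2157, 1769.5 and 2941 in the tumors, without overlap (log2 difference -2.01, SE 0.25, limma adjusted p = 0.00226). Ggps1 encodes geranylgeranyl diphosphate synthase, which lengthens farnesyl diphosphate for protein prenylation instead. Its brightest probe set read 835, 585 and 924.5 in wild type and 871, 971 and 1362 in the tumors, groups that overlapped (log2 difference 0.43, SE 0.24, 95% interval -0.12 to 0.99). Its 4 probe sets did not point the same way, with differences from -0.24 to 0.43.

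Squalene synthase, squalene epoxidase and lanosterol synthase are encoded by Fdft1, Sqle and Lss. Fdft1 fell from 4516, 3818 and 4866 to 922, 1308 and 1446, a log2 difference of -1.83 (SE 0.21, limma adjusted p = 0.00158). Its other passing probe set, also called, had a difference of -1.70. Sqle fell from 3600.2, 2854 and 3211 to 930.5, 1146 and 1490.4 (log2 difference -1.43, SE 0.20, limma adjusted p = 0.00366). In both genes every tumor lay below every wild-type sample. Lss read 546, 390.5 and 452.5 against 256, 360.3 and 346. Its groups did not overlap, but the log2 difference of -0.49 (SE 0.19) missed the threshold (limma adjusted p = 0.0991).

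All 8 measured enzymes between lanosterol and cholesterol fell, each with every tumor below every wild-type sample. Tm7sf2, a sterol C14 reductase gene, read 690.3, 293 and 769.9 in wild type and 102, 117 and 134 in the tumors. The wild-type spread was wide, 2.63-fold from lowest to highest, and the tumors lay just above 100 (log2 difference -1.95, SE 0.34, limma adjusted p = 0.00748). Nsdhl, which encodes a sterol dehydrogenase, fell from 2215, 1661 and 2096 to 677, 782 and 883 (log2 difference -1.31, SE 0.18, limma adjusted p = 0.00298). Msmo1, the C4 methyl sterol oxidase gene, fell from 7117, 5830.5 and 7663 to 2464.5, 3326 and 3655.5 (log2 difference -1.13, SE 0.20). Dhcr7, whose product reduces 7-dehydrocholesterol to cholesterol, fell by 1.01 on the log2 scale (SE 0.17). Ebp, the sterol isomerase gene, fell by 0.88 (SE 0.17). These 5 calls held without any 1 sample.

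Cyp51, Hsd17b7 and Sc5d were called on less. Cyp51, the lanosterol demethylase gene, fell from a mean of 1616 ± 401 to 797 ± 163 (SD, n = 3), a log2 difference of -0.98 (SE 0.24, limma adjusted p = 0.0227). Its limma adjusted p was 0.0856 without wild-type replicate 1, 0.0757 without wild-type replicate 3, 0.0625 without tumor replicate 1 and 0.0651 without tumor replicate 2. Its dimmer passing probe set had a difference of -0.42, which did not pass, and the mean over its probe sets missed the threshold too (limma adjusted p = 0.0667). Without a filter the limma adjusted p of Cyp51 was 0.0511. Hsd17b7 encodes a 3-ketosteroid reductase of the route. It read 2150.5, 1307.5 and 2915 in wild type and 512, 637 and 1229 in the tumors (log2 difference -1.41, SE 0.39, limma adjusted p = 0.0351), and all 3 of its probe sets were called lower. Its limma adjusted p was 0.106 without wild-type replicate 1, 0.104 without wild-type replicate 3, 0.092 without tumor replicate 1 and 0.0907 without tumor replicate 2. Without a filter the limma adjusted p of Hsd17b7 was 0.0693. Sc5d encodes lathosterol oxidase, and its tumors differed most among themselves, at 815, 2487 and 1460.1 against 3608, 3243 and 4319 in wild type. The call of Sc5d (log2 difference -1.34, SE 0.37, limma adjusted p = 0.0359) was lost without any sample but tumor replicate 2, with limma adjusted p of 0.0972, 0.0732 and 0.106 without wild-type replicates 1, 2 and 3 and of 0.0516 and 0.0696 without tumor replicates 1 and 3. Of its 3 probe sets 2 were called lower, and the other, at 1275, 1064 and 1318 against 739, 1474 and 1026, had a difference of -0.22 that did not pass, with tumor replicate 2 above every wild-type sample. The call of Sc5d was also lost with the mean over its probe sets (-0.95, limma adjusted p = 0.0628) and without a filter (limma adjusted p = 0.0709).

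**Figure D2:**
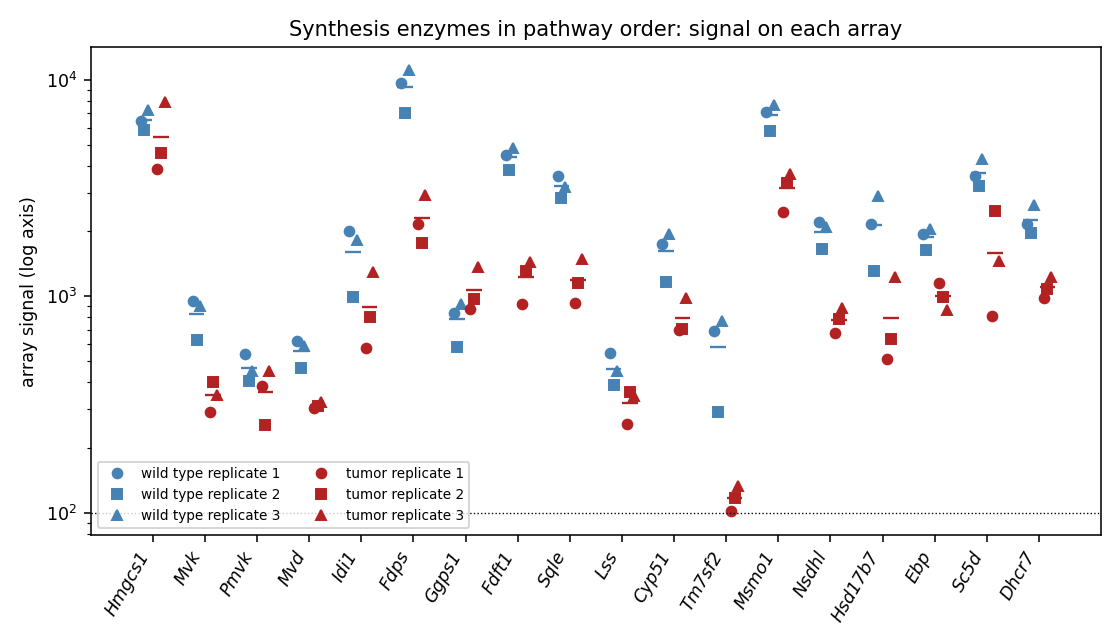
The vertical axis is the array signal on a log axis and the horizontal axis the 18 synthesis enzymes in pathway order; each point is 1 array, blue for wild type and red for tumor, short bars are group means and the dotted line marks a signal of 100. From Cyp51 to Dhcr7 all red points lie below all blue points, while Hmgcs1, Pmvk, Idi1 and Ggps1 overlap, and wild-type replicate 2 (blue square) is the lowest blue point of every gene.

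The same samples were lowest or highest of their group in most of these enzymes. Wild-type replicate 2 had the lowest wild-type signal in 18 of 18 synthesis enzymes, against 34.0% of all tested genes, at a median of -0.23 on the log2 scale from the wild-type mean. Among tumors, replicate 1 was lowest in 15 of 18, against 35.2% of all tested genes, and replicate 3 highest in 14 of 18, against 37.7%. The enzymes were read on the same arrays and are not independent replicates, so these counts carry no test. The median log2 difference of the synthesis enzymes was -1.21 without wild-type replicate 2, -0.95 without tumor replicate 1 and -1.16 without tumor replicate 3. As a measure of RNA quality, the 3'-over-5' signal of the Actb controls (log2) was 0.669 in wild-type replicate 2 against 0.328 and 0.342 in the others, and 0.57, 0.888 and 0.966 in tumor replicates 1, 2 and 3. That of Gapdh was -0.324 in wild-type replicate 2 against -0.395 and -0.455, and -0.469, -0.244 and -0.382 in the tumors, so the groups overlapped in both measures. Their part in these orders was not tested.

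**Figure D3:**
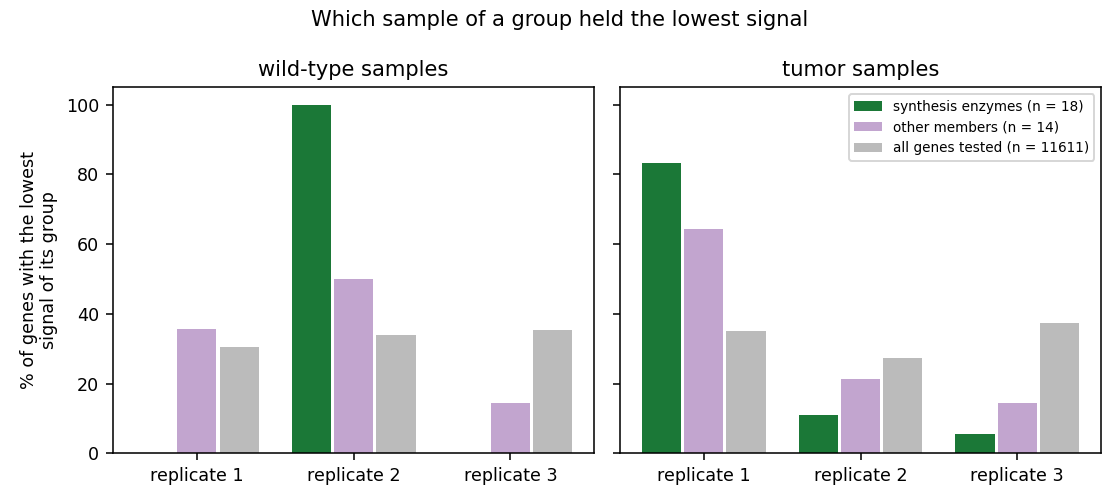
Bars give the percentage of genes (vertical axis) for which each sample (horizontal axis) had the lowest signal of its group, for the 18 synthesis enzymes, the other 14 genes and all 11611 tested genes. Wild-type replicate 2 stands at 100% and tumor replicate 1 at 83.3% of the synthesis enzymes, while no sample passes 37.5% of all tested genes.

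Since most of the measured enzymes fell, the 250 bases before the transcription starts of the set in RefSeq (mouse GRCm38.p6) were searched on both strands. Windows were found for 29 of the 35 genes, 16 of them synthesis enzymes. None was found for Fdps, Fdft1, Sqle, Scarb1, Stard4 and Npc1, so the shares below leave out several of the most reduced genes. The letters of the NF-Y box, CCAAT, whose factor NF-Y is known to act beside SREBPs, lay in 15 of these 16 enzymes (93.8%), Acat2 being the exception, against 40.4% of the 9403 tested genes with a window. In 14 of the 16 a box started within 100 bases of the start (87.5%), against 25.9% of those genes and 38.5% of the other 13 genes of the set. Of tested genes with an NF-Y box anywhere in a window, 14% fell and 12.6% rose, against 11.6% and 14.7% of those without it. Whether the box bears on the lower transcripts was not tested. The sterol regulatory element, searched as TCACNCCAC, lay in 1 window of the set, that of Hmgcs1, and in 1.25% of the tested genes. The Sp1 box GGGCGG was in 87.5% of the 16 enzymes and 64.7% of the tested genes, and the E-box CACGTG in 18.8% and 10.1%. Overlaps between motifs were kept, and a match is a run of letters, not a measured binding site. Genes with several annotated starts have several windows.

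These 5 windows show how the boxes lie in enzymes that fell and in enzymes that did not pass, written 5′ to 3′ on the gene's strand up to the base before the start, with CCAAT or its reverse complement ATTGG in capitals and, in Hmgcs1, also the element.
Hmgcs1 (log2 difference -0.32, did not pass), chr13:119690101-119690350, plus strand: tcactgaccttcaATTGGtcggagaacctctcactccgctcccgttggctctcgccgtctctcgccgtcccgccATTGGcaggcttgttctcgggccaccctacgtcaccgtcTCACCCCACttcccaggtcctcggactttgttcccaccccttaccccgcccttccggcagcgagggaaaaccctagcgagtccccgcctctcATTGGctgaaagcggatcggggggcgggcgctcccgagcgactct
Mvk (-1.16, lower), chr5:114444019-114444268, plus strand: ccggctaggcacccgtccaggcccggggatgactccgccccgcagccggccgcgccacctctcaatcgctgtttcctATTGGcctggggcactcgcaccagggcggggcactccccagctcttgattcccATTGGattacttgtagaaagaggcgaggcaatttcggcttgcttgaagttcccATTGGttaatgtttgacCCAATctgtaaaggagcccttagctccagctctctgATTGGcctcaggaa
Nsdhl (-1.31, lower), chrX:72918271-72918520, plus strand: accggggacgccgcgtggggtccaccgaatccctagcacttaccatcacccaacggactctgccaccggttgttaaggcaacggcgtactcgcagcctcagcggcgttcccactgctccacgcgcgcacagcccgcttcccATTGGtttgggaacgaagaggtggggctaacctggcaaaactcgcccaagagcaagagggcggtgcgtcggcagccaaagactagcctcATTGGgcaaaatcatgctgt
Tm7sf2 (-1.95, lower), chr19:6067851-6068100, minus strand: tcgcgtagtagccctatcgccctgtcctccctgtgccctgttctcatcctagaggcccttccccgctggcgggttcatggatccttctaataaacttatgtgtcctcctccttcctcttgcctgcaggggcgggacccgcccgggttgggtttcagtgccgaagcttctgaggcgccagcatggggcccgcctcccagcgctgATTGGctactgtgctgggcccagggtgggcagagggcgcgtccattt
Ggps1 (0.43, did not pass), chr13:14063489-14063738, minus strand: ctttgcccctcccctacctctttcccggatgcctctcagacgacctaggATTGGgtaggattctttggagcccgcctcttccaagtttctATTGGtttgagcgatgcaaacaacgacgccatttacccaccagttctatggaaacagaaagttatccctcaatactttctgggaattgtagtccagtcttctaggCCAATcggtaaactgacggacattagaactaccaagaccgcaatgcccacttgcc
Mvk holds 5 boxes, Hmgcs1 and Ggps1 hold 3 each, Nsdhl 2 and Tm7sf2 1. The boxes were thus present both in enzymes that fell and in enzymes that did not pass.

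**Figure D4:**
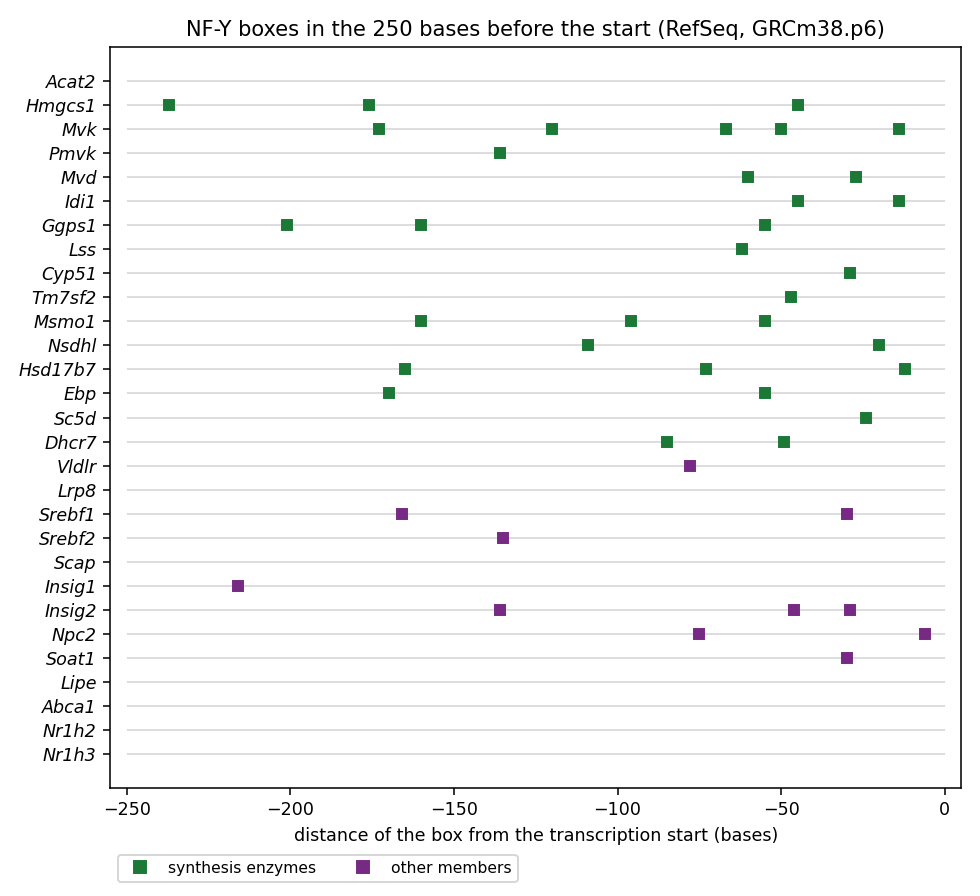
Each row is a gene with a RefSeq window, the horizontal axis is the distance in bases from the transcription start, and squares mark the first base of each CCAAT box on either strand, green for synthesis enzymes and purple for the others. The green squares gather near the start, within 100 bases in 14 of 16 enzymes, and Acat2, Lrp8, Scap, Lipe, Abca1, Nr1h2 and Nr1h3 have none.

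Among the lipoprotein receptors, 2 of 3 fell. Scarb1 encodes the scavenger receptor through which ovarian cells take cholesteryl esters from high-density lipoprotein. It read 10937, 9249 and 12167 in wild type and 2305, 2416.5 and 5180.3 in the tumors (log2 difference -1.79, SE 0.32, limma adjusted p = 0.00801). Tumor replicate 3 read above the other tumors but below every wild-type sample. Of its 3 probe sets 2 were called lower, and the third had a difference of -1.53.

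Lrp8 encodes a lipoprotein receptor that also binds reelin and showed the largest difference of the set. Its signals were 703, 516 and 643 in wild type and 6.83, 75.3 and 79.8 in the tumors, all 3 of which lay below 100. Set against a signal of 100, wild type was at least 6.15-fold higher (limma adjusted p = 0.00284), with measured means of 620.5 ± 95.4 and 54.0 ± 40.9 (SD, n = 3). The log2 difference was -3.06 (SE 0.40), and its size depends on the pseudocount because the tumor signals are near background. A dimmer probe set, at 474, 414 and 493 against 44.9, 29.7 and 50.4, was also called. On both probe sets all 3 tumors read below 100, so the signal filter was met through the wild-type arrays alone. Lower was thus the only direction open to either call, and the calls add no support of their own.

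Vldlr, which encodes the very low density lipoprotein receptor, did not pass. It read 1547, 1689 and 2069 in wild type and 2026, 3192 and 1605 in the tumors (log2 difference 0.31, SE 0.26, limma adjusted p = 0.42). All 6 of its probe sets had differences above 0, from 0.24 to 1.26, and 0 passed. On the probe set with the largest difference, tumor replicates 1 and 2 read 773 and 890.5, while tumor replicate 3, at 190.4, lay among the wild-type signals of 173, 156 and 283. The tumors therefore differed among themselves in Vldlr, with replicate 3 lowest, whereas in Scarb1 replicate 3 was the highest tumor.

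Of the 5 genes of the SREBP system 3 fell. Srebf1 and Srebf2 encode the SREBPs themselves, and Scap their escort. Srebf2, whose product acts mainly on cholesterol genes, fell from 1636, 1451 and 1310.3 to 774, 618 and 629.8 (log2 difference -1.09, SE 0.16, limma adjusted p = 0.00423), and its second probe set, at -0.55, did not pass. Srebf1, whose products act more on fatty acid genes, fell from 1985, 1529 and 1756 to 740.2, 903 and 1000.2 (log2 difference -0.97, SE 0.17, limma adjusted p = 0.00828). In both genes every tumor lay below every wild-type sample. Scap fell from 12142, 11690 and 11542 to 6206, 8104 and 6651 (log2 difference -0.76, SE 0.15), though without wild-type replicate 1 its limma adjusted p was 0.0574.

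The Insig genes did not pass. Insig1, itself a known SREBP target, read 1282.5, 1054 and 1134 in wild type and 987, 1359 and 1041 in the tumors, so the groups overlapped fully. Its log2 difference was -0.04 with a 95% interval from -0.45 to 0.36 (limma adjusted p = 0.875). Insig2 read 1187, 1271 and 1280.2 against 1039, 1171.5 and 1291, a difference of -0.10 with an interval from -0.44 to 0.24. With arrays scaled to the hybridisation controls, which moved the median of all genes to -0.9997, the differences were -1.06 and -1.12, close to that median. Both genes passed there (limma adjusted p = 0.00777 and 0.00498), where 7801 genes were called lower. Which scaling is nearer to the RNA content was not tested.

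Inside the cell, Npc2 and Npc1 hand cholesterol from the lysosome's interior to its membrane and Stard4 carries sterol between membranes. Npc1 fell from 588, 824 and 595 to 339.6, 324 and 453 (log2 difference -0.79, SE 0.20, limma adjusted p = 0.0258). This call was lost without any sample but tumor replicate 3, with limma adjusted p of 0.0618, 0.0668 and 0.0545 without wild-type replicates 1, 2 and 3 and of 0.0682 and 0.0765 without tumor replicates 1 and 2. It was lost as well with arrays scaled to equal medians (0.0902), with the replicate block (0.0567) and without a filter (0.0586). Npc2 read 7515, 8208 and 8034 against 6021, 6572 and 6900.5, groups without overlap that did not pass (log2 difference -0.29, SE 0.14, limma adjusted p = 0.161). A second, nearly as bright probe set of Npc2 read 8293, 8956 and 8706 against 5234, 5809 and 6125 and was called lower when every probe set was tested, with a difference of -0.60 (limma adjusted p = 0.0289). Stard4 did not pass, at 870.2, 457 and 941 against 352, 769.9 and 1126, the widest tumor spread of the transport genes (3.20-fold). Over all passing probe sets of the 32 genes, 29 of 67 were lower and 0 higher, against 11.9% lower of the 24168 probe sets tested. Both probe sets of Lrp8, whose direction the signal filter had fixed, are among the 29.

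The genes of ester breakdown, efflux and oxysterol sensing did not pass. Lipe encodes hormone-sensitive lipase, which frees cholesterol from stored esters. It read 295, 251 and 346 in wild type and 716, 344 and 443 in the tumors, and only tumor replicate 2 overlapped with wild type (log2 difference 0.64, SE 0.27, limma adjusted p = 0.117). Of 5 adipocyte markers on the array, the summed signal was 285 to 314 in wild type, 825 in tumor replicate 2 and 23737 and 29139 in tumor replicates 1 and 3. Adipoq, their defining gene, read at most 25.3 in wild type, 52.6 in tumor replicate 2 and 8446.5 and 8410 in tumor replicates 1 and 3. Tumor replicates 1 and 3 were thus also those with the higher Lipe signals, and the part of adipocyte RNA in them was not tested.

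**Figure D5:**
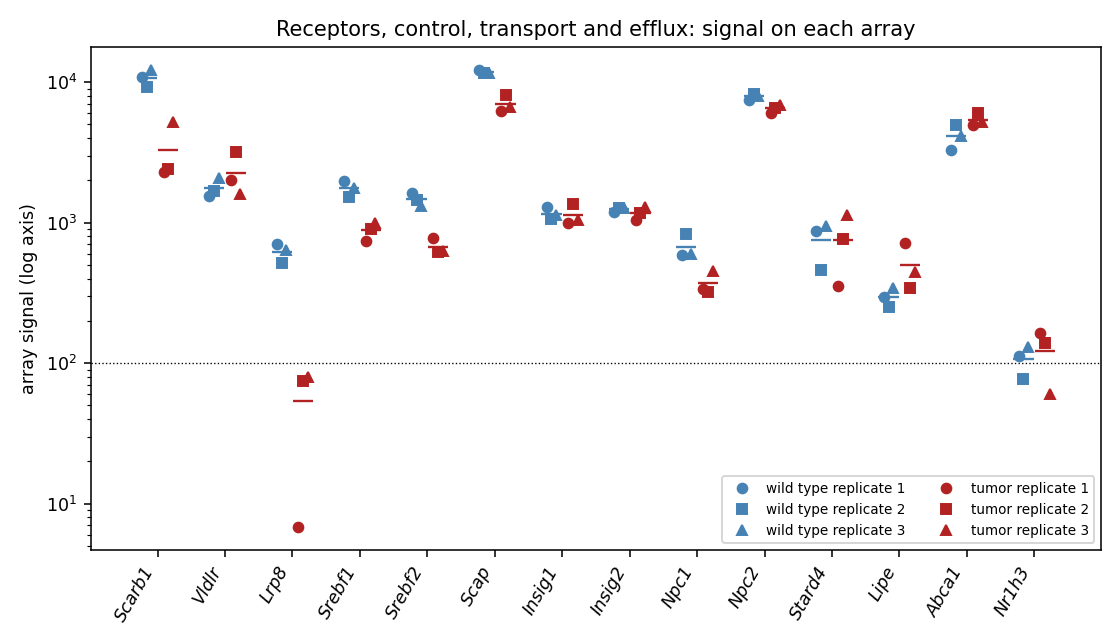
The vertical axis is the array signal on a log axis and the horizontal axis the 14 receptor, control, transport, ester and efflux genes; each point is 1 array, blue for wild type and red for tumor, short bars are group means and the dotted line marks a signal of 100. Scarb1, Lrp8, Srebf1, Srebf2, Scap, Npc1 and Npc2 have all red points below all blue points, and the tumors of Lrp8 lie below 100.

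Abca1, the exporter that loads cholesterol onto apolipoprotein A-I, read 3274, 4974 and 4122 in wild type and 4955.5, 6061.5 and 5247 in the tumors, with wild-type replicate 2 just above the lowest tumor. Its log2 difference of 0.41 (SE 0.19) did not pass (limma adjusted p = 0.157), and its other probe sets had differences of 0.07 and 0.28. Nr1h3, the gene of the oxysterol receptor LXR alpha, stayed near 100 on every array, at 113, 76.6 and 130 against 164, 140 and 59.9. Macrophages are rich in both transcripts. Of 15 macrophage markers on the array, 13 were tested and all 13 rose. Among them Ptprc read below 100 in all wild-type samples, so the signal filter had fixed its direction. The summed signal of the 15 markers was 2513 to 3092 in wild type and 15107 to 18688 in the tumors. Their part in the Abca1 signal was not tested.

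Marker transcripts of several cell types also differed between the groups. The summed signal of 10 granulosa markers was 171930 to 199420 in wild type and 70601 to 89174 in the tumors. Of the 10, 5 fell (Fshr, Inhba, Inhbb, Fst and Hsd17b1) and 2 rose (Amh and Wt1). Foxl2, Inha and Nr5a2 did not pass, with log2 differences of -0.51, -0.40 and -0.49. The difference between the sums leans on Inhba, with means of 26368 and 687, and Inhbb, with means of 33400 and 2139.5 in wild type and tumors. Inha had the highest mean of the 10 in both groups, at 42810 and 32382. These markers are named after their values were seen. All 8 fibroblast markers rose, with sums of 13269 to 16258 and 42776 to 66227, as did all 7 smooth muscle markers (4248 to 5695 and 16108 to 30025). Of 10 endothelial markers 5 rose (3299 to 3939 and 6274 to 13977). Of 5 tested oocyte markers 4 fell, with sums over 7 markers of 872 to 1564 and 374 to 695. Of 4 theca and luteal markers 2 fell, with sums of 43146 to 52095 and 12820 to 50696. Cyp17a1, with means of 4282 and 140, and Ptgfr fell, while Hsd3b1 and Akr1c18 did not pass. Most of these sums is Hsd3b1, at 36586 to 46353 in wild type and 12510 to 43115 in the tumors. Zp1, Zp2, Zp3 and Ptgfr read below 100 in all tumors, and Fap, Vwf and Des below 100 in all wild-type samples. These genes met the signal filter through the other group alone, so the direction of their calls was fixed in advance. The part of these cell types in the lower synthesis transcripts was not tested.

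The lists of genes next to the pathway are read beside the 12.6% of all tested genes that were called lower and the 14.5% called higher. They too were chosen with earlier results known, so their counts are descriptions. Of 12 fatty acid genes known as SREBP targets, 6 fell, 0 rose and 6 did not pass. Elovl6, a fatty acid elongase gene, fell from 8851, 7678 and 7586 to 427, 416 and 1146, a log2 difference of -3.69 (SE 0.37, limma adjusted p = 0.00113), and its tumors were highest in replicate 3, as in Scarb1. Of 11 genes of the isoprenoid branch beyond farnesyl diphosphate 2 fell, 0 rose and 9 did not pass, a share near that of all genes, and Icmt fell by 0.73 (SE 0.16). Among 10 genes of SREBP processing and sterol regulation 3 fell and 0 rose, Tmem97 the most, by 1.08 (SE 0.18).

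Of 9 oxysterol genes and LXR targets, 4 rose and 1 fell. Pltp, the phospholipid transfer protein gene, rose from 483, 436 and 483 to 3230.0, 5767 and 4848 (log2 difference 3.18, SE 0.23, limma adjusted p = 0.000337). Lpcat3, which encodes a phospholipid-remodelling acyltransferase, fell by 1.31 (SE 0.15). Of 12 further sterol-handling genes 4 rose and 1 fell. Cav1, the caveolin gene, had a log2 difference of 1.44 (SE 0.20), and Nceh1, a cholesteryl ester hydrolase gene, one of -0.98 (SE 0.16). Of 4 genes that pass cholesterol to steroid synthesis 2 fell and 2 did not pass. Cyp11a1, whose enzyme cleaves the cholesterol side chain, fell from 12207, 10750.0 and 16017 to 298, 247 and 2182 (log2 difference -4.45, SE 0.74, limma adjusted p = 0.00638).

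Scaling the arrays to the bacterial hybridisation controls moved the median of all genes to -0.9997 and the split over all genes from 1686 higher and 1468 lower to 377 and 7801. Under that scaling 27 of the 32 genes were lower and 0 higher, and the synthesis enzymes' median relative to that of all genes was -1.09, beside -1.06 in the values above. With arrays scaled to equal medians the split over all genes was 1733 higher and 915 lower, and 18 of the 32 genes were lower and 0 higher.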

How the data were processed

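The 6 mouse arrays comprised 3 of wild-type granulosa cells and 3 of tumors. The deposited values are linear array intensities per probe set, scaled by the authors to a trimmed mean of 500, and per the submitters' processing notes MAS5 was used for the wild-type and GCOS for the tumor arrays. Software and group therefore cannot be told apart. Each array was set to a trimmed mean of 500 again, leaving out 2% at each end. Of 45101 probe sets, 34945 had 1 gene symbol in the platform's annotation, 932 several and 9160 none, and 64 were controls. A gene needed a signal of 100 on at least 3 of 6 arrays, and 11611 genes passed. Differences of log2(signal + 32) were tested with limma 3.58.1 in R 4.3.3 (lmFit, eBayes, Benjamini-Hochberg adjustment over all genes), and the fit was tested on simulated data. Adding 32 makes the fold of dim genes smaller. Where all samples of a group lay below 100, a bound against 100 is given as "at least".

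All 35 genes are described, and from each list of neighbouring genes the called gene with the largest difference in each direction is named. The members and lists were chosen with earlier results of these data known. Alternatives changed the pseudocount, filter, scaling, choice of probe set, variance trend and replicate block, and left out each sample in turn. Promoter windows came from RefSeq (GRCm38.p6).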

Additional observations from a re-analysis of the deposited data

How the results depend on the processing

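Across 18 alternatives, between 13 and 27 of the 32 cholesterol genes were lower and 0 higher, and 13 of the 19 lower genes were lower in every one. Leaving out 1 sample gave 13 to 20 lower genes, 9 to 14 of them synthesis enzymes, and 866 to 1704 higher and 662 to 1409 lower over all genes, the fewest without wild-type replicate 1. Without a filter 15 were lower (over all genes 1222 higher and 996 lower). Same-numbered samples did not deviate together (correlations -0.045, 0.028 and 0.09), so the numbers do not pair them; with the replicate block 18 were lower, all of them among the 19, and over all genes 1464 were higher and 1138 lower. Signs turned only in genes that had not passed. Scaling to the hybridisation controls moved the median of all genes to -0.9997, which gave the highest count of lower genes, and the log2 difference was -0.58 in Ggps1, -0.72 in Vldlr, -0.31 in Lipe, -0.63 in Abca1 and -0.68 in Nr1h3, each still above that median. With equal medians it was 0.054 in Insig1, 0.0012 in Insig2 and 0.0085 in Stard4, and with the mean of probe sets -0.0018 in Ggps1. Leaving out 1 sample gave -0.18 to 0.044 in Insig1, -0.44 to 0.35 in Stard4 and -0.12 to 0.43 in Nr1h3, which had no value with a filter of 200.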
